A study of Mus musculus with 4 samples.

Results

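The genes described here are the *Id* family (*Id1*, *Id2*, *Id3* and *Id4*) and 6 genes of bone morphogenetic protein (BMP) signalling, the ligand *Bmp4*, the receptors *Bmpr1a* and *Bmpr2*, and the Smads *Smad1*, *Smad5* and *Smad6*. Members were taken by symbol, and every array probe whose RefSeq accession belonged to one of them was read, which found probes for all 10 genes among the 20832 genes that the arrays could be matched to. Expression was measured in B16-F10, a mouse melanoma cell line, after flow cytometric sorting into a Met-low and a Met-high population by the amount of the receptor Met on the cell surface. Sorted cells were grown for 3 days in RPMI medium with fetal bovine serum and received no other treatment, and RNA from 2 samples of each population, described by the study as independently prepared, was labelled with Cy3 and hybridised to 4 one-colour Agilent arrays. The study asked how the populations differ in expression. Since both come from a single established line kept in culture, the values describe cultured cells and not a tumour, and where a population is a mixture, fewer expressing cells and less RNA per cell cannot be told apart.

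BMP ligands bind a pair of type I and type II receptor kinases, among them the proteins encoded by *Bmpr1a* (type I) and *Bmpr2* (type II). The type I receptor phosphorylates Smad1 and Smad5, which join Smad4 and enter the nucleus, and *Id1*, *Id2* and *Id3* are classic targets induced there together with *Smad6*, whose product inhibits the pathway. Id proteins are helix-loop-helix factors that lack the basic region for DNA binding, so they hold E proteins away from DNA and generally delay differentiation, and in melanocytes Id1 is known as a factor that opposes cellular senescence.

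To show the DNA in front of genes with unlike readings in these cells, the 250 bases before the start site are given for *Id2* and *Id3*, which were well above background on all arrays, for *Id4*, which was above background on none, and for *Bmpr2*, the member with the lowest unadjusted p. Sequences are from RefSeq on GRCm38.p6, written 5′ to 3′ on the strand of the gene, at chr12:25096093-25096342 (minus strand) for *Id2*, chr4:136143572-136143821 (plus strand) for *Id3*, chr13:48260866-48261115 (plus strand) for *Id4* and chr1:59764029-59764278 (plus strand) for *Bmpr2*. Capitals mark GGCGCC, a core of the elements bound by Smad1 and Smad5, and GTCT, the core of the Smad box, which reads AGAC on the other strand.
Id2: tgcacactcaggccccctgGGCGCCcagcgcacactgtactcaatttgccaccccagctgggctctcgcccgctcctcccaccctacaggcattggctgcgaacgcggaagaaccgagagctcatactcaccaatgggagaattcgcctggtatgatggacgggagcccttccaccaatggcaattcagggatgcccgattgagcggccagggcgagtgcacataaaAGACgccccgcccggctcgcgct
Id3: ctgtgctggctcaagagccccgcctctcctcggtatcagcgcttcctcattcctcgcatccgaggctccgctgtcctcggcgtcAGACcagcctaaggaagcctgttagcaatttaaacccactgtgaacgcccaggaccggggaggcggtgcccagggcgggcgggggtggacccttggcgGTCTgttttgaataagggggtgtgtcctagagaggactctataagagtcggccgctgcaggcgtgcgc
Id4: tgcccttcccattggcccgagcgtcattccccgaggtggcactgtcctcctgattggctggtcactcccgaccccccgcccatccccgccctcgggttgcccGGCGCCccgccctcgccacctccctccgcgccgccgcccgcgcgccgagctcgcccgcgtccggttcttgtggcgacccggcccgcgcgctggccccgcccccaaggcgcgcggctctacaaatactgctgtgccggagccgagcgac
Bmpr2: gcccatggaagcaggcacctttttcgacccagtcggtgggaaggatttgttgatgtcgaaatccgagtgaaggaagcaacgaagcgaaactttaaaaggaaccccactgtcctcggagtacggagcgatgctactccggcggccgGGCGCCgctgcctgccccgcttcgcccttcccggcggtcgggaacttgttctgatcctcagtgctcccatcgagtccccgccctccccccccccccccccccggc

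RefSeq windows were matched for 9 of the 10 genes, and the missing one was that of *Id1*. GGCGCC was found in the windows of 5 of these genes, *Id2*, *Id4*, *Smad5* (in 1 of its windows, which belong to several start sites), *Bmpr1a* and *Bmpr2*, and in 9.59% of all 32851 windows of this length. GTCT on either strand was found for 5 of the 9 genes and in 82.9% of all windows. The E-box CANNTG, the kind of site bound by E proteins, was found for 3 of the 9 genes, *Id2*, *Smad5* and *Bmp4*, and in 66.2% of all windows. A match is a description of letters and not of binding. GGCGCC stood 231 bases before the start of *Id2* and 148 bases before that of *Id4*, so its presence did not separate an *Id* gene that was well above background from one that was not.

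The 75th percentile of the intensity lay between 858 and 1331 on the arrays, 50.01% to 53.63% of 43020 spots were well above background, and 0 spots were saturated. Wherever a gene or probe is said to be above background, well above background is meant. All arrays lay on 1 slide, where Met-low samples took positions 1 and 2 and Met-high samples 3 and 4, and the effect of position cannot be told apart from that of population. Signals are given as background-corrected intensities, which are not scaled between arrays, and on a log2 scale from which each array's 75th percentile was subtracted, the scale of every mean, SD and ratio below. Ratios are the mean log2 signal in Met-high minus that in Met-low cells. The receptor gene *Met* itself differed by 0.87 on this scale (standard error 0.51, adjusted p = 0.33 by limma, with p-values adjusted after Benjamini and Hochberg), and its arrays overlapped between the populations. All 7 genes of a melanocyte list (*Tyr*, *Tyrp1*, *Dct*, *Pmel*, *Mlana*, *Mitf*, *Sox10*) were well above background on all arrays. Of 14 probed markers of fibroblasts, leukocytes, endothelium and keratinocytes, 4 were well above background on all arrays, *Kdr*, *Csf1r*, *Cd3e* and *Col1a2*. Another 6 were so on none, *Ptprc*, *Cdh5*, *Tek*, *Lum*, *Dcn* and *Pdgfra*. The summed intensity of the 14 was 10.6 and 9.33 times the 75th percentile of the array in Met-low and 14.1 and 10.67 times in Met-high samples. *Kdr* alone held 5895 of a sum of 10025.5 in Met-low replicate 1 and 7197 of 12066 in Met-high replicate 1. The other probe of *Kdr* was above background on no array, so the sum is no measure of other cells. *Col1a2*, also among the 14, was lower in Met-high cells (log2 ratio -1.10, standard error 0.17, adjusted p = 0.031 from limma). The part of these markers in the values below was not tested.

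None of the measured *Id* and BMP genes passed the test between the populations in the main fit, which does not use the replicate number. A fit with that number as a block, given in the closing section, differed for *Bmpr2* and *Smad6*. Of the 10 genes, 8 were well above background, each on all 4 arrays, while *Id4* and *Bmp4* were above background on none. In limma 0 of the 8 had an adjusted p under 0.05, where 5.77% of the 11958 genes tested were called, 3.82% as lower and 1.95% as higher in Met-high cells. At an unadjusted p under 0.05 there was 1 of 8 lower in Met-high cells (*Bmpr2*) and 0 higher, against 11.9% and 14.3% of all genes. No member differed by more than 2-fold in its means, which 5.29% of all genes did on the lower and 2.43% on the higher side. The mean was lower in Met-high cells for 6 of the 8 and higher for 2, where 40.5% of all genes had a lower and 59.5% a higher mean, and their median log2 ratio was -0.14, beside 0.10 over all genes tested.

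**Figure D1:**
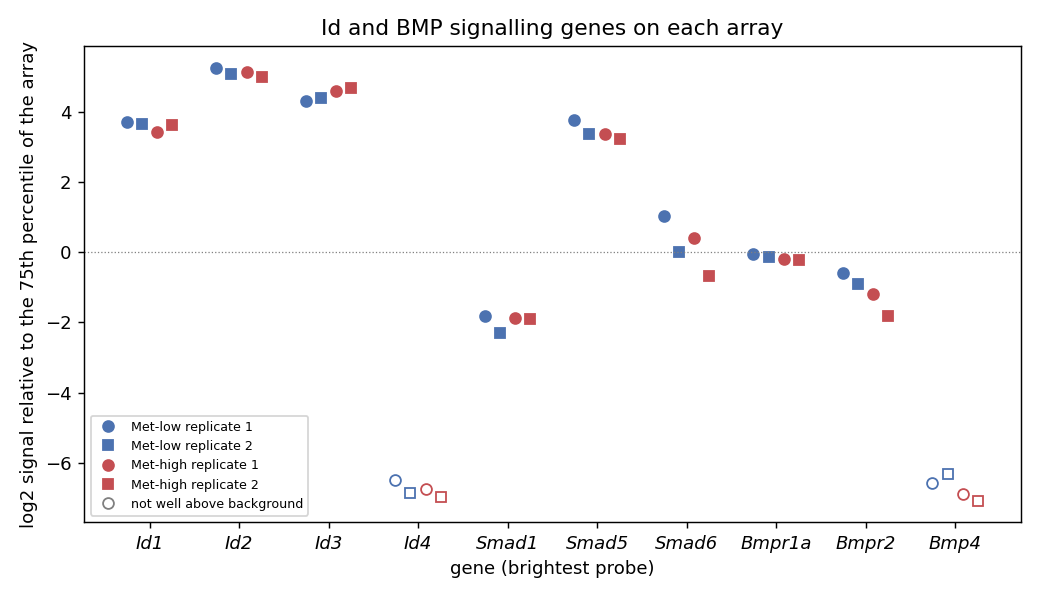
Log2 signal relative to the 75th percentile of the array (y axis) for the brightest probe of each of the 10 genes (x axis), with 1 point per array, blue for Met-low and red for Met-high samples, circles for replicate 1 and squares for replicate 2. Open symbols were not well above background; *Id4* and *Bmp4* are open on all 4 arrays, and the arrays of the populations lie close together or overlap for most other genes. Levels of different probes are not comparable with each other.

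*Id1*, *Id2* and *Id3* gave bright signals in both populations, with small differences between them. The intensity of *Id1* (NM_010495) was 12495 and 16700.3 in the Met-low and 9182 and 13886 in the Met-high samples. On the scaled log2 signal this was 3.73 and 3.65 against 3.42 and 3.64. The populations of *Id1* did not overlap, Met-low being higher, but Met-low replicate 2 and Met-high replicate 2 lay almost level. The log2 ratio of *Id1* was -0.16 (standard error 0.17, 95% interval -0.58 to 0.27, adjusted p = 0.59 from limma).

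*Id2* (NM_010496), whose product restrains differentiation in many lineages, had intensities of 36296 and 45499.6 in the Met-low and 30297 and 35717 in the Met-high samples. The scaled log2 signal was 5.27 and 5.09 against 5.14 and 5.01, so the populations overlapped. Its log2 ratio was -0.11 (standard error 0.17, 95% interval -0.53 to 0.31, adjusted p = 0.71 from limma). The populations of *Id2* differed by less than the uncertainty of the fit.

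*Id3* (NM_008321) was the only *Id* gene with a higher mean in Met-high cells. Its intensities were 18916 and 28331.5 in the Met-low and 20918 and 28715 in the Met-high samples, and the scaled log2 signal was 4.33 and 4.41 against 4.61 and 4.69. Both Met-high arrays were above both Met-low arrays, and the arrays of a population differed little, with means of 4.37 ± 0.06 (SD, n = 2) and 4.65 ± 0.06 (SD, n = 2). The log2 ratio of 0.28 (standard error 0.16, 95% interval -0.11 to 0.67) did not pass the test (adjusted p = 0.31 from limma).

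*Id4* (NM_031166), the family member best known from neural and mammary tissue, was not well above background on any array. Its intensities were 10.4 and 11.54 in the Met-low and 8.003 and 8.816 in the Met-high samples. The scaled log2 signal of *Id4* lay between -6.98 and -6.50, while the lowest signals that were well above background on an array lay between -5.25 and -4.59. No ratio is given for *Id4*, since it was well above background in neither population.

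The 95% intervals of *Id1*, *Id2* and *Id3* all lay within a 2-fold difference in either direction.

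**Figure D2:**
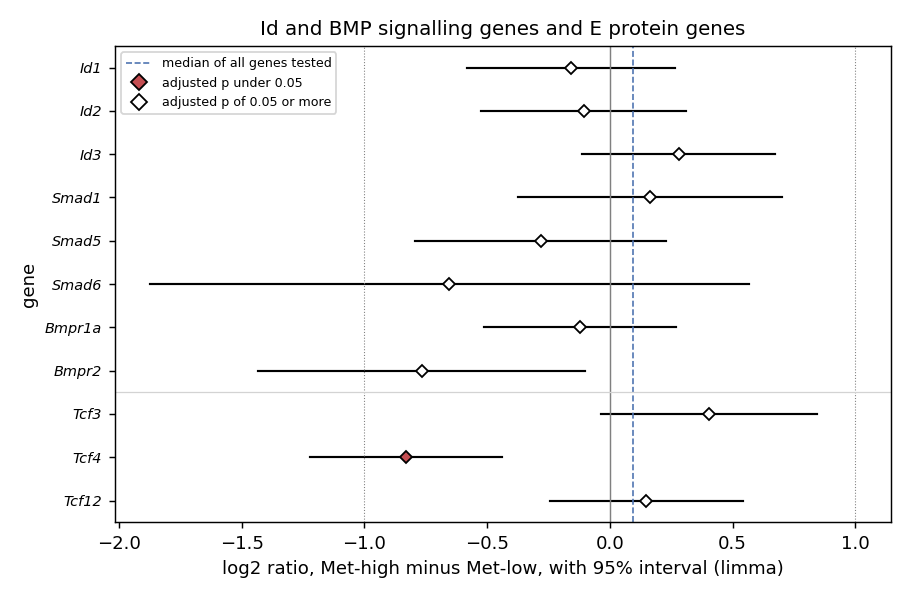
Log2 ratio of Met-high minus Met-low (x axis) with its 95% interval from limma for the 8 members well above background and, under the grey line, for 3 genes of E proteins (y axis), from 2 arrays per population. Dotted lines mark 2-fold and the dashed line the median of all genes tested, 0.10; the filled symbol, *Tcf4*, is the one gene drawn with an adjusted p under 0.05.

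The receptor Smads were measured in both populations without a difference that passed the test. *Smad5* (NM_001164041) had intensities of 12959.9 and 13772.5 in the Met-low and 8881 and 10334 in the Met-high samples. Scaled, its log2 signal was 3.78 and 3.37 against 3.37 and 3.22, so that Met-low replicate 2 and Met-high replicate 1 were level and the populations overlapped. The log2 ratio was -0.28 (standard error 0.20, 95% interval -0.79 to 0.23, adjusted p = 0.42 from limma). A second probe of *Smad5*, with the same accession, gave a log2 ratio of 0.04 (adjusted p = 0.95 by limma over 19796 probes, of which 2.63% were called), so its probes differed in sign.

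*Smad1* (NM_008539) had intensities of 270.3 and 273 in the Met-low and 236 and 298 in the Met-high samples. Its scaled log2 signal was -1.80 and -2.29 against -1.87 and -1.90, and both Met-high arrays lay between the Met-low arrays. The log2 ratio was 0.16 (standard error 0.21, 95% interval -0.38 to 0.70, adjusted p = 0.66 from limma), and it turned to -0.0810 without Met-low replicate 2. The second probe of *Smad1* gave a ratio of 0.08 (adjusted p = 0.89 over all probes).

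*Smad6* (NM_008542), which encodes the inhibitory Smad of the BMP branch, varied most between the arrays of a population among the 8 members. Its intensities were 1938 and 1347.5 in the Met-low and 1146 and 699 in the Met-high samples. The scaled log2 signal was 1.04 and 0.02 against 0.42 and -0.67. Met-low replicate 1 was the highest and Met-high replicate 2 the lowest array, but Met-high replicate 1 was above Met-low replicate 2, so that the populations overlapped. Compared by replicate number, the Met-high array was the lower in both, 0.42 against 1.04 and -0.67 against 0.02. The labels do not say that the numbers pair the samples, and a fit with the number as a block is in the closing section. With means of 0.53 ± 0.72 (SD, n = 2) and -0.13 ± 0.77 (SD, n = 2), the log2 ratio was -0.65 (standard error 0.48, 95% interval -1.87 to 0.57, adjusted p = 0.43 from limma). Without Met-low replicate 1 the ratio of *Smad6* was -0.14 and without Met-high replicate 2 it was -0.11, while without Met-low replicate 2 it was -1.17 and without Met-high replicate 1 it was -1.20.

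The type II receptor gene *Bmpr2* had the ratio farthest from 0 among the 8 members over all 4 arrays, while *Smad6* was farther from 0 without Met-low replicate 2 or without Met-high replicate 1. The intensity of *Bmpr2* (NM_007561) was 631 and 709.9 in the Met-low and 374 and 314 in the Met-high samples. Its scaled log2 signal was -0.58 and -0.91 against -1.20 and -1.82, so the populations did not overlap and Met-low was higher. The log2 ratio was -0.77, a calculated 1.70-fold higher mean in Met-low cells (standard error 0.26, 95% interval -1.43 to -0.10). At an unadjusted p of 0.031 and an adjusted p of 0.15 from limma, *Bmpr2* did not pass the test over all genes. Leaving out Met-high replicate 1 gave -1.08 (adjusted p = 0.0503), and leaving out Met-high replicate 2 gave -0.46 (adjusted p = 0.42).

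The type I receptor gene *Bmpr1a* (NM_009758) had intensities of 918 and 1211.5 in the Met-low and 752 and 949 in the Met-high samples. The scaled log2 signal was -0.04 and -0.14 against -0.19 and -0.23, the Met-low arrays being the higher by a small margin. Its log2 ratio was -0.12 (standard error 0.15, 95% interval -0.51 to 0.27, adjusted p = 0.65 from limma). *Bmpr1a* and *Bmpr2*, whose products act in one receptor complex, had the ratios -0.12 and -0.77, and a difference between these ratios was not tested.

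*Bmp4* (NM_007554), a ligand that acts on neural crest and its derivatives, was read by 2 probes, neither of them well above background on any array. The brighter probe had intensities of 9.93 and 16.6 in the Met-low and 7.22 and 8.22 in the Met-high samples. On the other probe they were 9.13 and 9.82 against 6.84 and 8.03. Since neither probe was well above background in either population, no ratio is given.

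The populations did not overlap, with Met-low higher, for 3 of the 8 members, *Id1*, *Bmpr1a* and *Bmpr2*, beside 22.6% of all genes tested, and the reverse held for 1 of 8, *Id3*, beside 35.7% of all genes. These counts say nothing particular of the *Id* and BMP genes. With the 75th percentile taken over detected probes alone, every log2 ratio and the median of all genes fell by 0.14, from 0.10 to -0.05 for the median. *Id3* then had a ratio of 0.14 and *Smad1* one of 0.02, and the 8 members kept their signs.

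**Figure D3:**
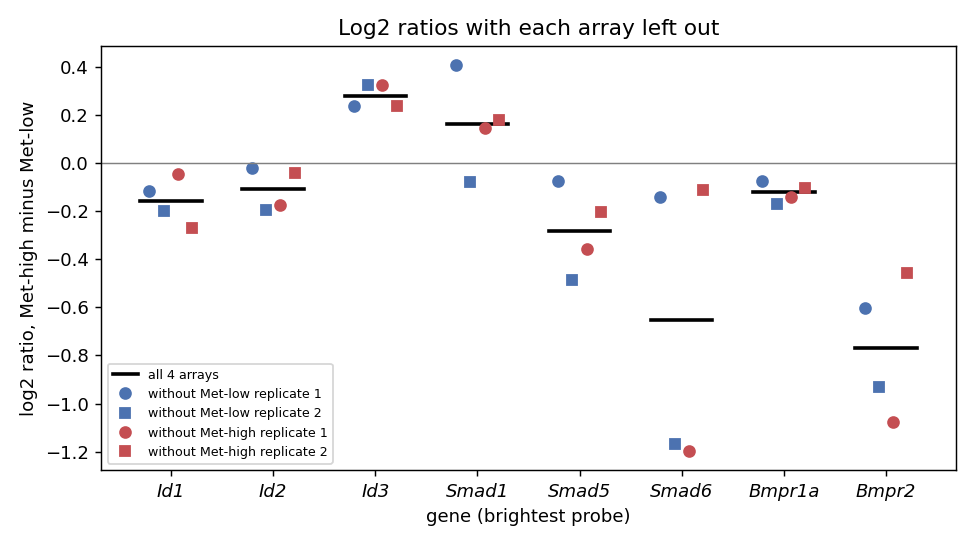
Log2 ratio of Met-high minus Met-low (y axis) of the 8 members well above background (x axis) over all 4 arrays (black line) and after removal of 1 array at a time (points, coloured by the population of the array left out). *Smad6* spans -1.20 to -0.11 and *Bmpr2* -1.08 to -0.46, while *Id3* stays between 0.24 and 0.32.

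The E proteins, the partners that Id proteins bind, were read through the genes *Tcf3*, *Tcf4* and *Tcf12*. *Tcf4* was lower in Met-high cells, with intensities of 715 and 1036 in the Met-low and 383 and 464 in the Met-high samples and a scaled log2 signal of -0.40 and -0.36 against -1.16 and -1.26. The Met-low values were the higher ones without overlap, and the arrays of each population lay close together. The log2 ratio of *Tcf4* was -0.83 (standard error 0.15, 95% interval -1.22 to -0.44, adjusted p = 0.046 from limma). Another probe of *Tcf4* was not well above background on any array. The call lay near the threshold, and it held in 6 of 14 alternatives, the replicate block of the closing section not counted. It was lost with any array left out (adjusted p between 0.079 and 0.14), with normexp background correction (0.0523), with quantile normalization (0.0519), without the filter on dim probes (0.21) and over all probes (0.075), while the ratio stayed between -0.98 and -0.68.

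For *Tcf3* the ratio was 0.40 (standard error 0.17, adjusted p = 0.22 by limma), and its Met-high arrays were the higher without overlap. Its scaled log2 signal was 0.77 and 0.49 in the Met-low against 1.03 and 1.03 in the Met-high samples, and a second probe of *Tcf3* gave a ratio of 0.45. For *Tcf12* the ratio was 0.15 (standard error 0.16, adjusted p = 0.58 by limma), whereas another probe gave -0.37, so the sign of *Tcf12* depended on the probe. The ratios of *Tcf4* and of the other E protein genes were not tested against each other.

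A list of 45 other genes of the pathway, written from general knowledge, gave no call in the main fit either. All 45 had a probe, 21 passed the filter on dim probes and 14 had no probe above background on any array. In limma 0 of the 21 had an adjusted p under 0.05, where 5.77% of all genes tested were called. At an unadjusted p under 0.05 there were 3 lower and 0 higher in Met-high cells, beside 11.9% and 14.3% of all genes. Of the 21, 13 had a lower and 8 a higher mean in Met-high cells, beside 40.5% and 59.5% of all genes, with ratios from -0.92 to 0.38 and a median of -0.09, beside 0.10 over all genes.

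**Figure D4:**
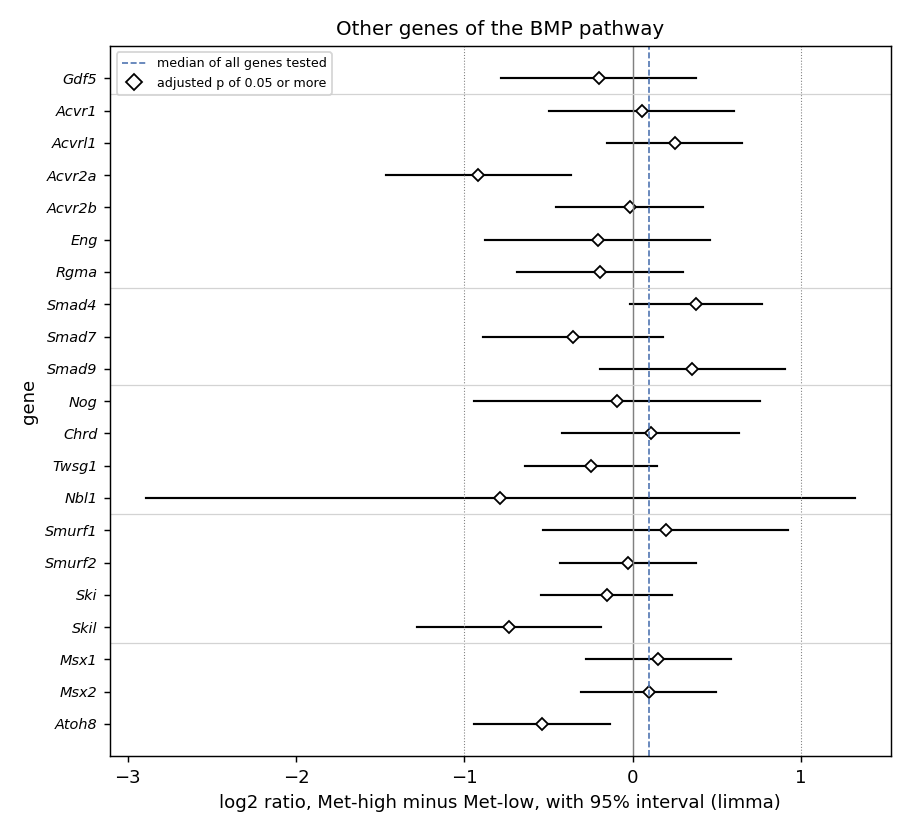
Log2 ratio of Met-high minus Met-low (x axis) with its 95% interval from limma for the 21 other pathway genes that passed the filter on dim probes (y axis), from 2 arrays per population. Grey lines separate, from the top, ligands, receptors and co-receptors, Smads, extracellular antagonists, inhibitors at the membrane or in the cell, and targets; all symbols are open, since no gene had an adjusted p under 0.05, and the intervals of *Acvr2a*, *Skil* and *Atoh8* lie below 0.

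By role, most ligands were not seen. Of the 12 ligands of the list, 8 had no probe above background on any array, and 1 passed the filter, *Gdf5*, a growth factor of joint and cartilage formation, with a log2 ratio of -0.20 (adjusted p = 0.61 from limma) that was 0.0623 without Met-high replicate 2. Its probe was well above background on 1 Met-low and on 2 Met-high arrays, whereas the other 20 genes were so on all 4. *Bmp2*, *Bmp6* and *Bmp7*, ligands with wide expression, were among the 8. Of 9 receptors and co-receptors, 6 passed the filter, and of 11 extracellular antagonists 4 did, among them *Nog*, which encodes the BMP antagonist noggin. *Bmpr1b* and *Bambi*, a type I receptor and a pseudoreceptor that blunts signalling, were above background on no array.

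The 3 pathway Smads had ratios of different signs. *Smad4*, the shared partner of the receptor Smads, came to 0.38 (standard error 0.16, adjusted p = 0.20 by limma), with both Met-high arrays, at 2.34 and 2.40, above both Met-low arrays, at 2.05 and 1.95. A second probe of *Smad4* gave 0.27. *Smad9*, the third receptor Smad of the BMP branch, had a ratio of 0.36 (adjusted p = 0.35), which was 0.12 without Met-high replicate 1 and 0.59 without Met-high replicate 2. *Smad7*, which encodes the inhibitory Smad of both the BMP and the TGF-β branch, had a ratio of -0.35 (adjusted p = 0.34), with its Met-low arrays at 0.38 and 0.10 and its Met-high arrays at 0.08 and -0.31. Removal of single arrays gave ratios of *Smad7* from -0.55, without Met-high replicate 1, to -0.16, without Met-high replicate 2.

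The 3 genes with an unadjusted p under 0.05 are named here after their values were seen, as were *Gdf5*, the pathway Smads and the *Msx* genes. *Acvr2a*, a type II receptor shared by activins and BMPs, had intensities of 89 and 153 in the Met-low and 41 and 71 in the Met-high samples, which gave a ratio of -0.92 (standard error 0.22, adjusted p = 0.077 by limma). A second, dimmer probe of *Acvr2a* was above background on no array. The ratio of *Acvr2a* was -0.40 (adjusted p = 0.16) with normexp background correction and -0.70 (adjusted p = 0.16) without Met-high replicate 1, and it passed the test without Met-high replicate 2, at -1.13 (adjusted p = 0.0465). *Skil*, which encodes a Smad-binding repressor, had a ratio of -0.73 (standard error 0.22, adjusted p = 0.12), and its second probe gave -0.81. *Atoh8*, a basic helix-loop-helix gene known as a BMP target, had a ratio of -0.54 (standard error 0.16, adjusted p = 0.12), with scaled log2 signals of 0.22 and 0.05 against -0.41 and -0.39. The populations did not overlap for any of these 3 genes on the probe used, with Met-low higher, which held for 22.6% of all genes tested. Since the 3 were picked by their unadjusted p, this is no separate evidence. On the second *Skil* probe the populations overlapped. The targets *Msx1* and *Msx2* had small ratios of 0.15 and 0.10, with adjusted p of 0.61 and 0.73 (limma).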

How the data were processed

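Arrays of 2 Met-low and 2 Met-high samples, grouped by the labels, were read. The authors deposited Feature Extraction output (version 11.0.1.1 per the file headers, 10.7.3.1 per the labels) with a background-corrected Cy3 intensity and quality flags (scored 0 or 1) for each spot, and a table of processed log2 values, which per the methods were scaled to the 75th percentile and centred on each gene's median. Here, intensities were floored at 0.01 (0 spots changed), converted to log2, and reduced by the array's 75th percentile over non-control spots. Outlier-flagged spots (207 to 232 per array) were left out, and spots of a probe averaged. RefSeq (GRCm38.p6) named 27427 of 39429 probes by accession, and the brightest probe stood for a gene. A gene was tested if both arrays of 1 population or more were well above background. The test was limma 3.58.1 (R 4.3.3, lmFit and eBayes), Benjamini-Hochberg adjusted over 11958 genes, or over 19796 probes for further probes. When tested on simulated data it found few of the 2-fold changes, so a missed threshold does not show that a gene is unchanged. With 2 arrays per population, permuting the arrays has 3 splits and cannot give a p under 0.05, and the number of arrays limits the precision. Members, lists and tests were chosen with earlier results of these data known. Genes named by rule are the 10 members, the E protein genes and list genes at an adjusted p under 0.05, of which there were 0; other list genes were named as examples or after their values were seen. Alternatives are given in the closing section.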

Additional observations from a re-analysis of the deposited data

How the results depend on the processing

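Tried in place of the chosen settings were background correction by normexp (offset 50), quantile normalization, a 75th percentile from detected probes, dropping or tightening the filter on dim probes, keeping flagged spots, averaging the probes of a gene, testing probes singly, the values processed by the authors, a mean-variance trend in eBayes, removal of 1 array at a time, and the replicate number as a block. Apart from the block, 0 of the *Id* and BMP genes passed an adjusted p under 0.05 in any of them. With an array left out, 0 to 2 of these genes and 0 to 2 of the pathway list fell by more than 2-fold in their Met-high means. In the same fits, 620 to 794 of 11953 to 11956 genes did so. *Smad6* passed 2-fold without Met-low replicate 2, and *Smad6* and *Bmpr2* without Met-high replicate 1. Of the pathway list, *Nbl1* had a ratio of -2.10 without Met-low replicate 1, beside -0.79 (standard error 0.83, adjusted p = 0.58 by limma) over all 4 arrays. The intensities of *Nbl1* were 68 and 598 in the Met-low and 77 and 135 in the Met-high samples, so the ratio of -2.10 rested on 1 bright Met-low array. *Acvr2a* had a ratio of -1.13 without Met-high replicate 2. *Acvr2a* was past 2-fold, as 1 gene, with the percentile over detected probes, where 809 of 11958 genes were more than 2-fold lower. Without the filter 4 genes of the list were more than 2-fold lower and 1 higher, all of them dim, beside 1398 lower and 658 higher of 20832 genes. The sign turned for *Smad1* without Met-low replicate 2 (-0.0810, where removal of single arrays gave up to 0.41), for *Gdf5* without Met-high replicate 2 (0.0623, where removal of single arrays gave down to -0.47) and for *Tcf12* with the mean of its probes (-0.11). The cause was not tested.

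The labels give the populations the same replicate numbers and name no shared batch or day, so what samples of the same number share is not known. The deviations of the arrays numbered 1 from their group means correlated at 0.54 over genes. With the replicate block, the calls over the 11958 genes tested rose from 690 to 3556, of which 1580 were lower and 1976 higher in Met-high cells. Beside these, 2 of the 8 *Id* and BMP genes tested passed in limma as lower, *Bmpr2* (-0.77, adjusted p = 0.021) and *Smad6* (-0.65, adjusted p = 0.020). Of the 21 pathway list genes tested, 3 passed as lower, *Acvr2a* (adjusted p = 0.012), *Skil* (adjusted p = 0.023) and *Atoh8* (adjusted p = 0.033). In both lists 0 passed as higher, and the counts were not tested against the share over all genes. The block changed no other call among the *Id* and BMP genes, the pathway list and the E protein genes *Tcf3*, *Tcf4* and *Tcf12*. Block values of *Met* and the marker genes are not given.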
